A study of Rattus norvegicus with 12 samples.

Results

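The genes described are the heat shock proteins and their co-chaperones, chosen by symbol from the gene names of the rat libraries. They comprise the heat shock factors (Hsf), the small heat shock proteins (Hspb), the HSP70 and HSP110 chaperones (Hspa, Hsph), the HSP90 chaperones, the mitochondrial chaperonin Hspd1, the J-domain proteins (Dnaja, Dnajb, Dnajc) and Bag1 to Bag6. The rule took 82 of 28111 gene names, of which 68 had a mean of at least 1 TPM (transcript abundance corrected for length and scaled to one total in every library) over the 12 libraries and were tested among 12861 gene names in all. Hspe1, the partner of Hspd1, was not analysed here. The libraries came from primary neuroglial cultures of the cerebral cortex of Wistar rats, from pups of postnatal day 0 by the labels and of days 1 to 2 by the study's methods, at 10 days in vitro. The methods state that cytosine arabinoside was added to the medium to restrain the growth of glia, so all 4 groups share that exposure. IC is the intact culture without treatment. EV received extracellular vesicles of human glial progenitor cells (EV-GPCs) made from the induced pluripotent stem cells of a single donor, at 10 µg/mL. The group named 3_100 received 3–100 kDa proteins at 15 µg/mL, and the group named 3_many received the total secretome at 45 µg/mL. RNA was taken 4 h after treatment, with 3 libraries in each group. The doses differ, so a preparation and its dose cannot be told apart in any comparison of one treatment with another.

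Heat shock proteins are molecular chaperones: they bind unfolded or aggregation-prone proteins and fold them, hold them or pass them on for degradation. HSP70 works in a cycle of ATP binding and hydrolysis in which J-domain proteins deliver clients and start hydrolysis, while BAG proteins and the HSP110 relatives of HSP70 release the nucleotide. Heat shock factor 1 (HSF1) turns on many of these genes under proteotoxic stress by binding inverted GAA repeats, the heat shock elements, whereas chaperones of the endoplasmic reticulum answer to a separate programme, the unfolded protein response. In brain cultures, astrocytes are known to raise the small heat shock protein HSPB1 readily, and neurons carry specialised J-domain proteins at the synapse.

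Bag3 and Hspb1 were higher than in IC after each of the 3 treatments, and no other member passed the adjusted test after EV. Bag3, which links HSP70 and small heat shock proteins to selective autophagy, was at 2.47, 3.65 and 1.74 TPM in IC, 11.7, 17.8 and 11.9 in EV, 17.01, 28.2 and 25.8 in 3_100 and 17.9, 23.8 and 24.5 in 3_many. No treated library overlapped the IC libraries, and the lowest treated value stood above the highest IC value by a wide margin. The log2 fold change of TPM + 1, on which all changes are given, was 2.04 (SE 0.26, adjusted p = 0.00613) after EV, 2.80 (SE 0.26, adjusted p = 0.0001) in 3_100 and 2.71 (SE 0.26, adjusted p = 0.000207) in 3_many by limma with Benjamini-Hochberg adjustment over all genes tested. Hspb1, the small heat shock protein HSP27 that holds unfolded clients and stabilises actin filaments, was at 0.709, 0.865 and 0 TPM in IC, 25.9, 11.8 and 3.98 in EV, 8.57, 5.90 and 4.66 in 3_100 and 17.4, 10.6 and 6.82 in 3_many. In IC it lay under 1 TPM and was listed at 0 in replicate 3, which in these files can be a failed estimate, while each of the 9 treated libraries was above all IC libraries. Within EV, the highest library held several times the level of the lowest. Its log2 fold change was 3.03 (SE 0.52, adjusted p = 0.028) after EV, 2.32 (SE 0.52, adjusted p = 0.0216) in 3_100 and 3.03 (SE 0.52, adjusted p = 0.00808) in 3_many by limma. Leaving out 1 library moved the change after EV to between 2.42 (without EV replicate 1) and 3.65 (without EV replicate 3). With a pseudocount of 0.1 in place of 1 the change after EV was 4.68 on the log2 scale. Hspb1 had a mean under 1 TPM in IC and passed the filter on low values through the treated libraries, as did Hsf2bp.

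Both calls after EV depended on settings. Bag3 after EV kept its call whichever single library was left out but had an adjusted p of 0.0868 when only the 6 libraries of EV and IC were fitted. Hspb1 after EV had an adjusted p of 0.35 in that fit and lost its call without IC 1, IC 2, IC 3, EV 1, EV 2, 3_100 2, 3_100 3 or 3_many 2 (adjusted p between 0.0541 and 0.156). In 3_100 it lost its call without IC 1, IC 3, 3_100 1, 3_100 2 or 3_100 3 (adjusted p between 0.0573 and 0.0814).

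**Figure D1:**
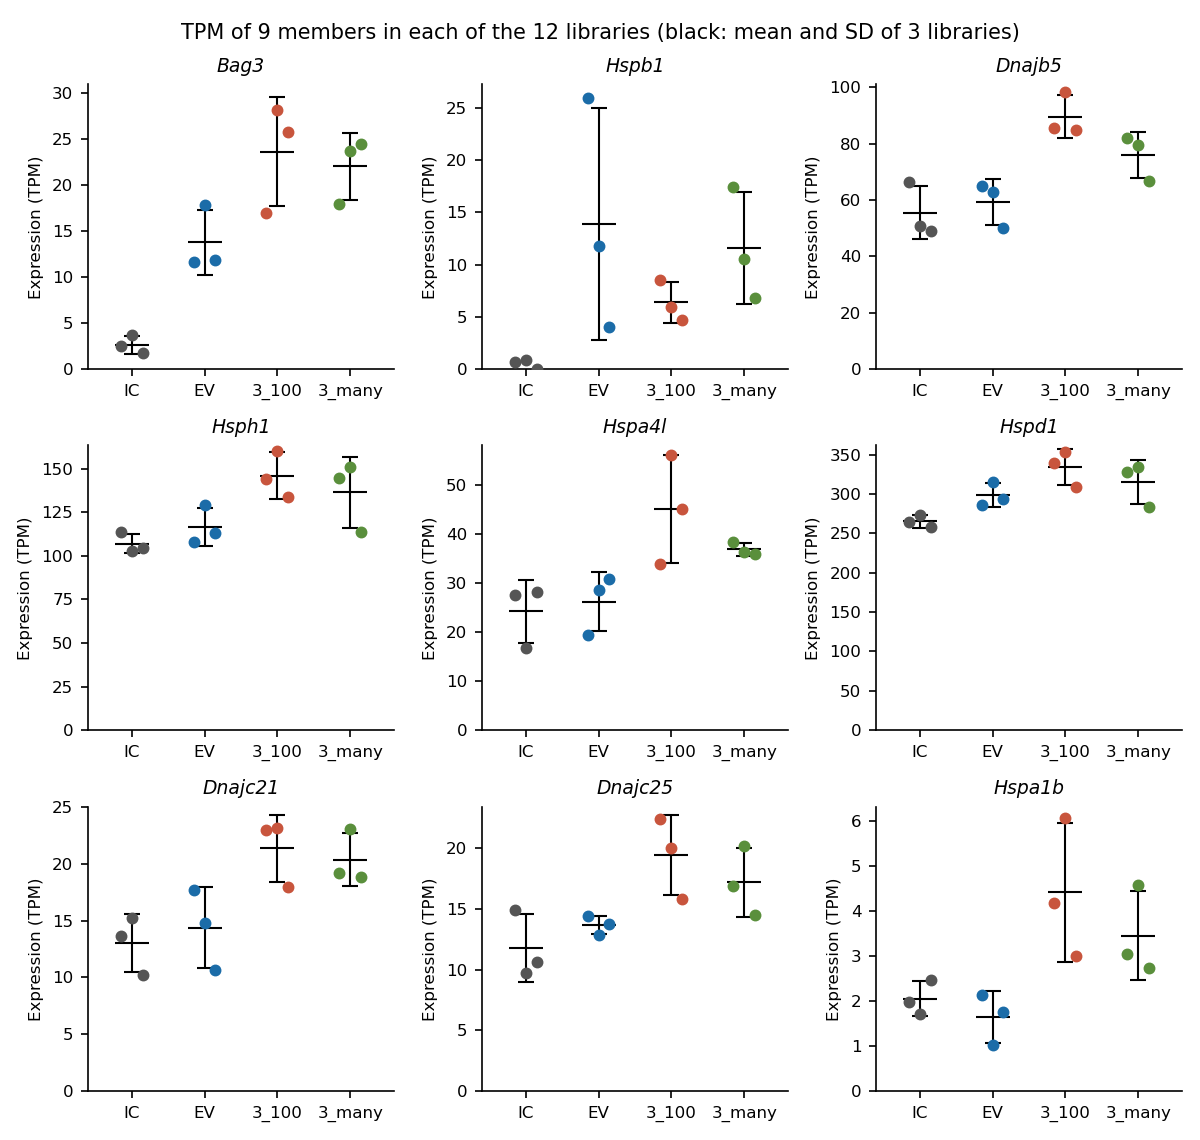
Expression in TPM (vertical axes, from 0) of 9 members in the 3 libraries of IC, EV, 3_100 and 3_many; points are libraries and black marks are the mean and SD of 3 libraries, left out where a library is listed at 0. Bag3 stands between 1.74 and 3.65 TPM in IC and at 11.7 TPM or more in every treated library, while Dnajb5, Hspa4l, Dnajc21 and Hspa1b are close to IC in EV and above it in 3_100 and 3_many.

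The promoters of these genes were read because many members are textbook targets of HSF1. RefSeq promoters (GRCr8, 250 bases before to 50 after the start) matched 64 of the 82 members with 65 sequences, and among the unmatched were Hsf1, Hsp90aa1 and Hspa1b. The letters GAANNTTC, a head-to-head pair of heat shock units read the same on both strands, stood in 20% of the members' promoters and in 8.59% of all 33469 promoters. The tail-to-tail pair TTCNNGAA stood in 13.8% and 8.77%. A row of 3 alternating units, GAANNTTCNNGAA or its complement TTCNNGAANNTTC, which overlaps both pairs by construction, stood in 6.15% and 0.798%. The endoplasmic reticulum stress element, CCAAT and CCACG with 9 bases between them on either strand, stood in 4.62% and 0.0657%. Below are the stretches before the start that hold such letters in members that the results turn on, with the matches in capitals, the start counted from RefSeq and every sequence written 5′ to 3′ along the strand of its gene. Bag3 (chr1:192533303-192533360, plus strand) and Hspb1 (chr12:26432378-26432455, minus strand) hold head-to-head pairs, and Hsph1 (chr12:10427238-10427367, plus strand) and Hspd1 (chr9:64084237-64084287, minus strand) hold rows of 3 units. Hspa5 (chr3:38452948-38453015, plus strand) is shown for the endoplasmic reticulum stress element that sets it apart from the other 4.
Bag3: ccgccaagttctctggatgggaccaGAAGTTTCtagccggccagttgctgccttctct
Hspb1: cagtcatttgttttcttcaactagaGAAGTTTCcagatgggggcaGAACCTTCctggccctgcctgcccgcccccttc
Hsph1: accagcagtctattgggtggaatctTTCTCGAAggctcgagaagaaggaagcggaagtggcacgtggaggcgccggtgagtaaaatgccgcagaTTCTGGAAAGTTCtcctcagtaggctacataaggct
Hspd1: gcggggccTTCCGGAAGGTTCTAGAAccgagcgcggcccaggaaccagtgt
Hspa5: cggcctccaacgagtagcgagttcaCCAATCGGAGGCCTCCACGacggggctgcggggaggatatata

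The head-to-head pair stood in 13 members in all, and besides the 4 shown these were Dnaja1, Dnajb1, Dnajb6, Dnajc18, Dnajc5g, Hspa8, Hspa9, Hspb6 and Hspb8. Of these Dnajc5g was not tested, and the others did not pass the adjusted test in any comparison. The row of 3 units also occurred in Dnaja1 and Hspa8, and the endoplasmic reticulum stress element in Hsp90b1 and Dnajc3. Dnajb5, Dnajc21 and Dnajc25 held none of these letters in this window, and Hspa4l held a tail-to-tail pair after its start, which is not shown. A match describes the letters only.

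Across the tested members, 2 of 68 passed an adjusted p under 0.05 after EV, both higher, where 0.428% of all genes tested passed in either direction and 0.412% passed as higher. In 3_100, 8 of 68 passed, all higher, against 7% of all genes in either direction and 5.05% as higher. In 3_many, 2 of 68 passed, both higher, against 4.13% and 3.25%. By the second criterion, a p under 0.05 with a change of more than 1.5 times, applied here to the unadjusted p, 2 members passed after EV (2.26% of all genes), 10 in 3_100 with 8 higher and 2 lower (9.83%), and 5 in 3_many, all higher (7.85%). These 3 comparisons share the IC libraries. Hspb1 is in each of these counts, and Hsf2bp is in those of the second criterion in 3_100 and 3_many. Both averaged under 1 TPM in IC and passed the filter only through treated libraries, so the filter favours their being counted as higher. By level, 14 members averaged above 100 TPM in IC, led by Hsp90ab1, Dnaja1, Hspa5, Hsp90b1 and Hspd1, whereas Bag3 and Hspb1 were among the lowest of the tested members there. The median log2 change of the tested members was 0.04 after EV, 0.12 in 3_100 and 0.10 in 3_many, beside 0.00, -0.02 and -0.01 over all genes tested. The summed TPM of the 82 members was 0.561% ± 0.040 (SD, n = 3) of a library in IC, 0.581% ± 0.042 in EV, 0.608% ± 0.060 in 3_100 and 0.591% ± 0.050 in 3_many, and these ranges overlapped.

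The 8 members called in 3_100 were Bag3, Hspb1, Dnajb5, Hsph1, Dnajc25, Hspd1, Dnajc21 and Hspa4l. The count depended on the fit, as did the count over all 12861 genes, which was 900 with all libraries. It was 3 when only IC and 3_100 were fitted (368 of all genes) and 3 without rescaling of the libraries (620 of all genes). Without 3_100 replicate 1, 2 and 3 it was 4, 2 and 3, while 760, 402 and 441 of all genes were called. It was 3 without IC replicate 1 (515 of all genes), 5 without IC replicate 3 (593) and 5 without 3_many replicate 3 (701). In 3_many the count of 2 became 5 with the replicate number as a block, where Dnajb5, Dnajc21 and Hspa14 passed beside Bag3 and Hspb1, and 4 without EV replicate 1, while the count over all genes went from 531 to 849 and 650. Hspa14 lies outside the rule for named members and was chosen after its values were seen.

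**Figure D2:**
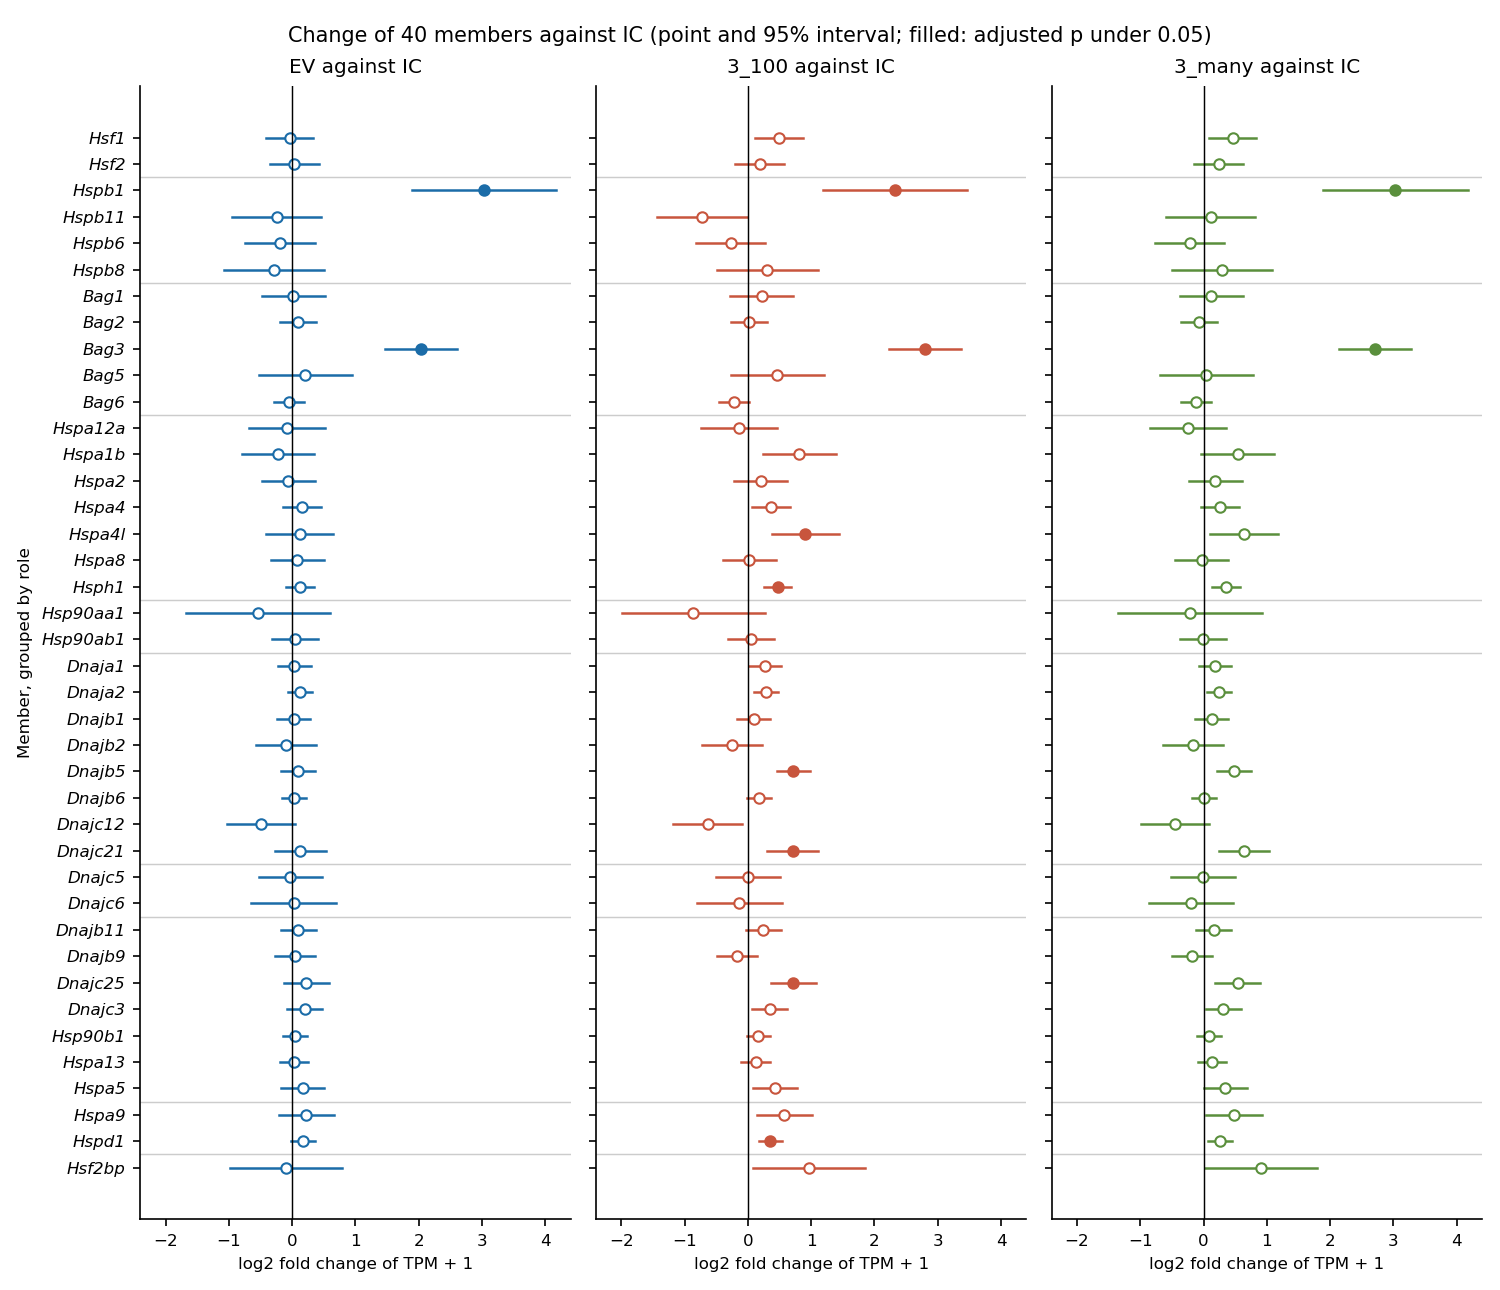
Log2 fold change of TPM + 1 against IC (horizontal axes) of the 40 named members, ordered by role with grey lines between roles, for EV, 3_100 and 3_many; points are estimates, lines are 95% intervals and filled points have an adjusted p under 0.05. Hspb1 and Bag3 are filled and far to the right in all 3 panels, 6 further points are filled in the 3_100 panel, and the interval of Hsp90aa1 (-2.0 to 0.28 in 3_100) is among the widest.

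The transcripts of the heat shock factors themselves were modest. Hsf1, which encodes the main stress-responsive factor, was at 8.13, 8.26 and 6.11 TPM in IC, 9.32, 6.83 and 5.81 in EV, 11.9, 11.5 and 8.72 in 3_100 and 10.96, 10.7 and 9.75 in 3_many. Every library of 3_100 and of 3_many lay above the IC libraries, while EV overlapped IC. The log2 fold changes were 0.49 (SE 0.17, adjusted p = 0.124) in 3_100, 0.46 (SE 0.17, adjusted p = 0.184) in 3_many and -0.04 (SE 0.17, adjusted p = 1) after EV, so none passed the adjusted test of limma. Without EV replicate 1 the change in 3_100 had an adjusted p of 0.0456, and without the 3 libraries IC replicate 2, EV replicate 1 and 3_100 replicate 1, left out after seeing the data, that in 3_many had 0.0429. Hsf2, a relative of Hsf1 that can form mixed trimers with it, lay at 31.2 to 56.7 TPM over the 12 libraries, with log2 changes of 0.03, 0.19 and 0.24 in EV, 3_100 and 3_many. Hsf4, a factor of the lens, and Hsf5 did not reach the level for testing.

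Among the small heat shock proteins, which form oligomers that hold unfolded clients without using ATP, 4 of 8 were tested and the change of Hspb1 was not shared. Hspb8, the partner of BAG3, was at 6.48, 14.4 and 5.49 TPM in IC, 6.24, 10.8 and 3.84 in EV, 7.63, 13.6 and 9.60 in 3_100 and 8.63, 11.4 and 9.93 in 3_many, and every treated group overlapped IC. Its log2 change was -0.28 after EV with a 95% interval of -1.08 to 0.51, 0.31 in 3_100 (-0.48 to 1.10) and 0.29 in 3_many (-0.51 to 1.08). Hspb6, known as HSP20, lay at 3.73 to 8.42 TPM, with log2 changes of -0.19, -0.27 and -0.22. Hspb11, which despite its symbol encodes a component of intraflagellar transport, was at 16.2, 16.2 and 7.15 TPM in IC, 10.3, 12.8 and 8.24 in EV, 8.71, 4.41 and 8.54 in 3_100 and 11.1, 13.4 and 15.8 in 3_many. It was lower in 3_100 by the second criterion, with a log2 change of -0.73 (SE 0.32, unadjusted p = 0.0446, adjusted p = 0.236 by limma), although IC replicate 3 lay inside the range of the 3_100 libraries. Hspb2, Hspb3, Hspb7 and Hspb9, known mainly from muscle or testis, were not tested.

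Of the 6 BAG proteins, all of which were tested, Bag3 alone passed in a comparison with IC, and it passed in each. Over all genes tested, 0.428% passed after EV, 7% in 3_100 and 4.13% in 3_many. Bag1, the exchange factor after which the family is named, was at 56.9 ± 16.5 TPM in IC, 57.4 ± 15.1 in EV, 63.5 ± 7.39 in 3_100 and 59.97 ± 7.21 in 3_many (SD, n = 3). Bag2, which restrains the ubiquitin ligase CHIP, lay at 14.1 to 19.7 TPM, with 95% intervals of its log2 change of -0.20 to 0.37 after EV, -0.27 to 0.30 in 3_100 and -0.35 to 0.22 in 3_many. Each of these intervals lies below the change of Bag3 in the same comparison. Bag6, which helps to sort membrane proteins made in the cytosol, was the most abundant of the 6 at 78.5 to 121 TPM, and its log2 change in 3_100 was -0.22 (adjusted p = 0.299 by limma). Bag5 ranged from 11.7 to 26.4 TPM, and Bag4 from 9.04 to 17.1 TPM, with groups that overlapped.

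In the cytosolic HSP70 and HSP110 group, 2 of 8 tested members, Hspa4l and Hsph1, passed the adjusted test in 3_100, where 7% of all genes tested did. Of the 8, 7 had a log2 change above 0, with a median of 0.42, beside 47.2% of all genes tested above 0. Both encode HSP110 proteins, which release nucleotide from HSP70 and help it to dissolve aggregates. Hspa4l was at 27.5, 16.8 and 28.2 TPM in IC, 19.3, 28.5 and 30.8 in EV, 33.9, 56.1 and 45.1 in 3_100 and 38.3, 36.3 and 35.9 in 3_many. All 3_100 and 3_many libraries lay above the IC libraries, and EV overlapped IC. The log2 changes were 0.90 (SE 0.24, adjusted p = 0.0479) in 3_100, 0.64 (SE 0.24, adjusted p = 0.191) in 3_many and 0.12 (SE 0.24, adjusted p = 1) after EV by limma. The call in 3_100 was lost without IC 1, IC 2, EV 2, EV 3, 3_100 2, 3_100 3, 3_many 1, 3_many 2 or 3_many 3 (adjusted p between 0.0513 and 0.189).

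Hsph1 was at 114, 103 and 105 TPM in IC, 108, 129 and 113 in EV, 144, 161 and 134 in 3_100 and 145, 151 and 113 in 3_many. The 3_100 libraries lay above those of IC, whereas 3_many replicate 3 fell among the IC values. Its log2 change was 0.47 (SE 0.10, adjusted p = 0.0156) in 3_100, 0.36 (SE 0.10, adjusted p = 0.0746) in 3_many and 0.12 (SE 0.10, adjusted p = 1) after EV by limma, and the call in 3_100 was lost without IC 1, 3_100 2 or 3_100 3 (adjusted p between 0.0538 and 0.0712). Hspa4, the third HSP110 gene, was at 146 ± 8.50 TPM in IC, 164 ± 28.7 in EV, 186 ± 17.8 in 3_100 and 173 ± 10.98 in 3_many (SD, n = 3), with a log2 change of 0.37 (SE 0.14, adjusted p = 0.152) in 3_100 by limma.

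Hspa1b encodes the classical inducible HSP70, and its levels were low: 1.98, 1.70 and 2.46 TPM in IC, 2.14, 1.01 and 1.76 in EV, 4.17, 6.06 and 3.004 in 3_100 and 3.03, 4.57 and 2.74 in 3_many. EV overlapped IC, and 3_100 and 3_many lay above both. The log2 change was 0.81 in 3_100 (SE 0.26, unadjusted p = 0.01, adjusted p = 0.0978 by limma), which met the second criterion, 0.54 in 3_many (adjusted p = 0.338) and -0.22 after EV (adjusted p = 1). Its near-identical neighbour Hspa1a was listed at 0 in all 12 libraries, so how reads were shared between the 2 copies is uncertain. Hspa8, the constitutive HSC70, was listed at only 26.1 to 43.2 TPM and has many near-identical copies in mammalian genomes, so its level is likewise uncertain. It showed log2 changes of 0.08, 0.02 and -0.03 in EV, 3_100 and 3_many. Hspa2 lay at 6.36 to 11.4 TPM and Hspa12a, a divergent HSP70 relative abundant in brain, at 21.7 to 45.2 TPM, and neither passed a test. Hspa14, part of a ribosome-bound chaperone pair with Dnajc2, had log2 changes of 0.49 (SE 0.15, adjusted p = 0.077) in 3_100 and 0.51 (SE 0.15, adjusted p = 0.092) in 3_many by limma. Dnajc2 had 0.52 (SE 0.20, adjusted p = 0.156) and 0.42 (SE 0.20, adjusted p = 0.31), and both were named after their values were seen.

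**Figure D3:**
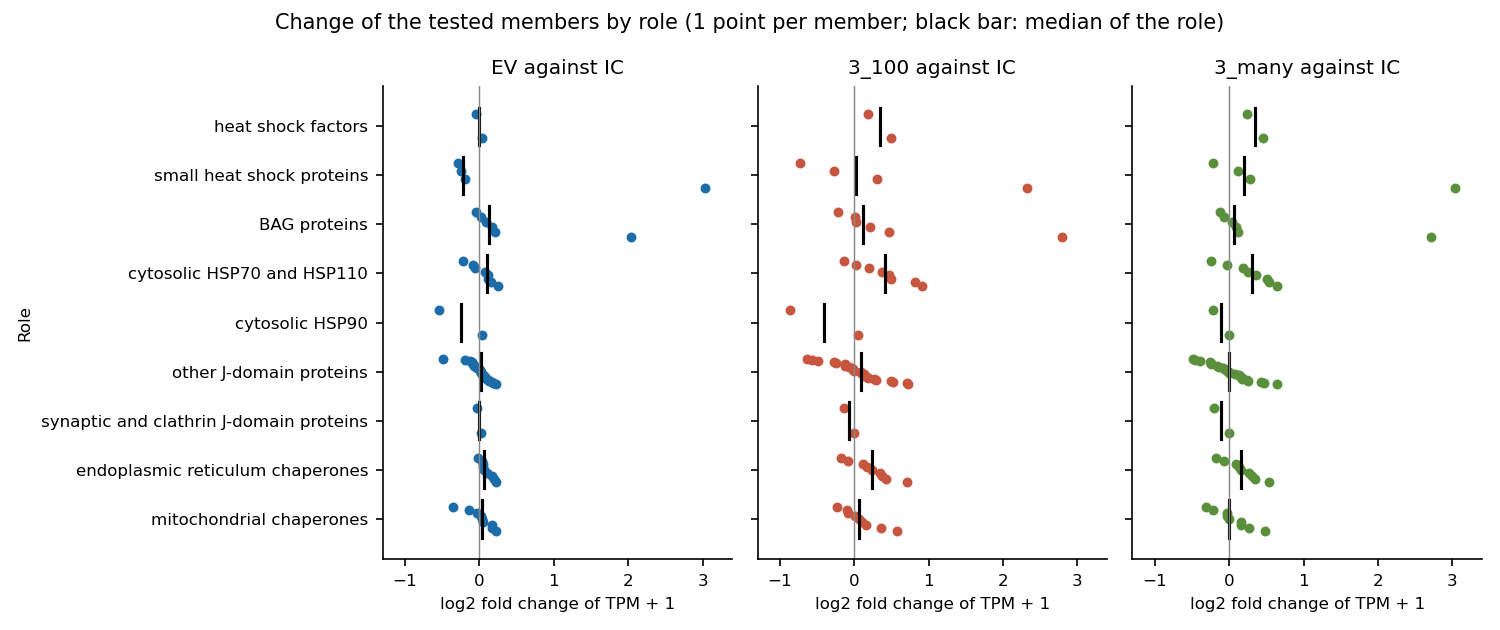
Log2 fold change of TPM + 1 against IC (horizontal axes) of 67 tested members by role (vertical axis), for EV, 3_100 and 3_many; each point is a member, black bars are medians of the role, and Hsf2bp, which is in no role, is left out. Single points far to the right in the small heat shock protein and BAG rows are Hspb1 and Bag3, and the HSP70 and HSP110 row has a median of 0.42 in 3_100 and 0.31 in 3_many beside 0.10 after EV.

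HSP90 folds signalling proteins such as kinases and steroid receptors. Hsp90ab1, the constitutive form, was the most abundant member at 1706 ± 299.6 TPM in IC, 1756 ± 312 in EV, 1727 ± 230.1 in 3_100 and 1663 ± 153 in 3_many (SD, n = 3), and its 95% intervals of the log2 change were -0.33 to 0.41 after EV, -0.31 to 0.42 in 3_100 and -0.37 to 0.36 in 3_many. Hsp90aa1, the inducible form, was at 139, 248 and 206 TPM in IC, 285, 88.4 and 90.8 in EV, 217, 98.4 and 51.9 in 3_100 and 150.2, 183 and 159 in 3_many. Its libraries spread more within groups than those of any other tested member, with a residual SD of 0.73 on the log2 scale beside a median of 0.23 over the tested members and 0.27 over all genes tested. The highest value was EV replicate 1 and the lowest 3_100 replicate 3. Its log2 change was -0.54 (SE 0.52, adjusted p = 1) after EV, -0.86 (SE 0.52, adjusted p = 0.417) in 3_100 and -0.21 (SE 0.52, adjusted p = 0.915) in 3_many by limma. When IC replicate 2, EV replicate 1 and 3_100 replicate 1 were left out, an alternative chosen after seeing the data, its log2 change in 3_100 was -1.19 with an adjusted p of 0.0358.

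**Figure D4:**
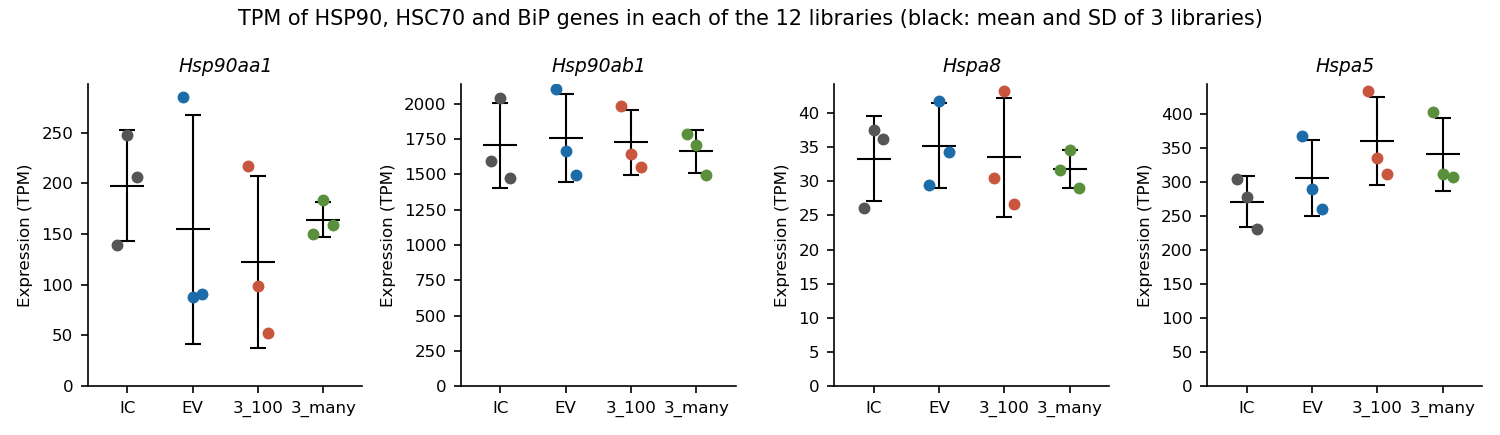
Expression in TPM (vertical axes, from 0) of Hsp90aa1, Hsp90ab1, Hspa8 and Hspa5 in the 3 libraries of each group; points are libraries and black marks are the mean and SD of 3 libraries. Hsp90aa1 runs from 88.4 to 285 TPM within EV, whereas Hsp90ab1 and Hspa8 overlap between all groups and Hspa5 lies above the IC range in all libraries of 3_100 and 3_many.

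J-domain proteins deliver clients to HSP70. The 28 on none of the lists for the endoplasmic reticulum, mitochondria or synapse were grouped as a remainder and not by compartment, and 25 were tested. Dnajb5, an HSP40 relative of Dnajb1, was the member other than Bag3 whose call in 3_100 held under all 21 alternatives. It was at 66.4, 50.9 and 49.2 TPM in IC, 65.2, 62.8 and 50.1 in EV, 85.8, 98.4 and 84.8 in 3_100 and 82.0032, 79.5 and 66.6 in 3_many. All 3_100 and 3_many libraries lay above the IC libraries, while EV did not separate from IC. The log2 change was 0.72 (SE 0.12, adjusted p = 0.00485) in 3_100, 0.47 (SE 0.12, adjusted p = 0.0558) in 3_many and 0.10 (SE 0.12, adjusted p = 1) after EV by limma. With the replicate block, the adjusted p in 3_many was 0.0474.

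Dnajc21, which takes part in the maturation of the large ribosomal subunit, was at 13.7, 15.2 and 10.2 TPM in IC, 17.7, 14.8 and 10.7 in EV, 22.9997, 23.2 and 17.9 in 3_100 and 19.2, 23.1 and 18.8 in 3_many. The 3_100 and 3_many libraries lay above those of IC. Its log2 change was 0.71 (SE 0.18, adjusted p = 0.0411) in 3_100, 0.64 (SE 0.18, adjusted p = 0.0831) in 3_many and 0.13 (SE 0.18, adjusted p = 1) after EV by limma. The call in 3_100 was lost without IC 1, IC 3, EV 2, 3_100 1, 3_100 2, 3_100 3, 3_many 1, 3_many 2 or 3_many 3 (adjusted p between 0.0536 and 0.14), and in 3_many the replicate block gave an adjusted p of 0.0487. Dnajc12, known to bind the aromatic amino acid hydroxylases, was lower in 3_100 by the second criterion, at 9.35, 10.1 and 7.67 TPM in IC, 4.74, 8.02 and 5.90 in EV, 6.28, 5.37 and 4.42 in 3_100 and 9.91, 6.36 and 3.69 in 3_many. The 3_100 libraries lay below IC, and 3_many overlapped it. The log2 change was -0.64 in 3_100 (unadjusted p = 0.0248, adjusted p = 0.167 by limma).

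Dnajb1, the major partner of inducible HSP70 and a classical HSF1 target, stayed at 41.1 to 56.04 TPM over the 12 libraries. Its 95% intervals of the log2 change were -0.24 to 0.29 after EV, -0.17 to 0.35 in 3_100 and -0.13 to 0.39 in 3_many, each below the change of Bag3. The abundant Dnaja1 was at 408 ± 35.6 TPM in IC, 420.1 ± 57.5 in EV, 483 ± 53.2 in 3_100 and 455 ± 40.1 in 3_many (SD, n = 3), and Dnaja2 at 152 ± 8.81 TPM in IC, 165 ± 12.3 in EV, 182 ± 18.5 in 3_100 and 177 ± 21.8 in 3_many. Neither passed the adjusted test, with log2 changes in 3_100 of 0.27 (adjusted p = 0.217) and 0.29 (adjusted p = 0.0773) by limma, although Dnaja2 had an adjusted p of 0.0368 without the same 3 libraries. Dnajb6 and Dnajb2, which are known to keep aggregation-prone proteins soluble, lay at 60.3 to 86.1 TPM and 38.3 to 77.2 TPM, with changes that did not pass in any comparison. Dnajb4 had the lowest p among the members with a change below 0 in 3_100 but stayed under 1.5 times, with log2 changes of -0.57 (SE 0.20, adjusted p = 0.129) in 3_100 and -0.48 (SE 0.20, adjusted p = 0.251) in 3_many by limma, and is named after its values were seen.

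The J-domain proteins of the synapse and of clathrin uncoating showed no call. Dnajc5, the cysteine string protein of synaptic vesicles, was at 117 ± 25.1 TPM in IC, 117 ± 34.7 in EV, 115 ± 23.6 in 3_100 and 114 ± 12.2 in 3_many (SD, n = 3), and Dnajc6, the neuronal auxilin that removes clathrin coats, at 50.7 ± 15.3 TPM in IC, 52.6 ± 20.7 in EV, 44.5 ± 10.3 in 3_100 and 42.05 ± 4.57 in 3_many. The 95% intervals of their log2 changes after EV were -0.53 to 0.47 and -0.64 to 0.69. Dnajc5b and Dnajc5g were not tested.

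The 9 chaperones listed for the endoplasmic reticulum were all tested. Of them 1, Dnajc25, passed in 3_100, a share near the 7% of all genes tested. It was at 14.9, 9.70 and 10.6 TPM in IC, 14.4, 12.9 and 13.7 in EV, 22.4, 20.01 and 15.8 in 3_100 and 16.9, 20.1 and 14.5 in 3_many. The 3_100 libraries lay above those of IC, and 3_many overlapped IC. Its log2 change was 0.72 (SE 0.16, adjusted p = 0.0226) in 3_100, 0.54 (SE 0.16, adjusted p = 0.0968) in 3_many and 0.22 (SE 0.16, adjusted p = 1) after EV by limma. The call was lost without IC 2, IC 3, 3_100 1 or 3_100 2 (adjusted p between 0.066 and 0.0763). Hspa5, the lumenal HSP70 known as BiP and a sentinel of the unfolded protein response, was at 305, 279 and 231 TPM in IC, 368, 289.6 and 260.1 in EV, 434, 336 and 312 in 3_100 and 403, 312 and 307 in 3_many. The 3_100 and 3_many libraries lay above the IC libraries, with log2 changes of 0.43 (SE 0.16, adjusted p = 0.139) and 0.34 (SE 0.16, adjusted p = 0.295), against 0.16 (SE 0.16, adjusted p = 1) after EV, so it did not pass by limma.

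Hsp90b1 (GRP94), the HSP90 of the same compartment, was at 271 ± 24.9 TPM in IC, 279 ± 13.9 in EV, 297 ± 20.8 in 3_100 and 284 ± 30.5 in 3_many (SD, n = 3), with a log2 change in 3_100 of 0.17 (SE 0.08, adjusted p = 0.313) by limma. Dnajc3, the lumenal co-chaperone p58IPK, was at 16.7 ± 2.06 TPM in IC, 19.2 ± 0.537 in EV, 20.9 ± 0.607 in 3_100 and 20.6 ± 1.55 in 3_many, with 0.34 (SE 0.13, adjusted p = 0.149) in 3_100. Dnajb9 and Dnajb11, which deliver clients to BiP, had log2 changes in 3_100 of -0.17 (adjusted p = 0.589) and 0.24 (adjusted p = 0.331), and Hspa13 one of 0.12. A change above 0 was found for 7 of the 9 in 3_100 and in 3_many and for 8 after EV, beside 47.2%, 48.2% and 50.7% of all genes tested, and the medians were 0.24, 0.16 and 0.07. Hspa5, Hsp90b1 and Dnajc3 are the 3 members whose promoters hold the endoplasmic reticulum stress element.

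In mitochondria, Hspd1 (HSP60) forms the folding chamber of the matrix, and Hspa9 (mortalin) pulls imported proteins inward. Hspd1 was at 265, 274 and 258 TPM in IC, 286, 316 and 294 in EV, 339, 354 and 309 in 3_100 and 328, 335 and 284 in 3_many. All 9 treated libraries lay above the highest IC library. The changes were small but had low spread, with log2 values of 0.36 (SE 0.09, adjusted p = 0.0301) in 3_100, 0.27 (SE 0.09, adjusted p = 0.123) in 3_many and 0.17 (SE 0.09, adjusted p = 1) after EV by limma. The call in 3_100 was lost without IC 1, 3_100 1, 3_100 2, 3_100 3 or 3_many 3 (adjusted p between 0.0501 and 0.112). Hspa9 was at 134, 83.1 and 129 TPM in IC, 104, 148 and 150.5 in EV, 144, 200.4 and 157 in 3_100 and 158, 161 and 149 in 3_many. Its 3_100 and 3_many libraries lay above IC, with log2 changes of 0.58 (SE 0.20, adjusted p = 0.122) and 0.48 (SE 0.20, adjusted p = 0.246) by limma. Without the same 3 libraries the change in 3_100 was 0.48 with an adjusted p of 0.0153. The other 7 mitochondrial members, among them Dnaja3 and the import factors Dnajc15 and Dnajc19, had log2 changes between -0.23 and 0.15 in 3_100, and none passed.

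Hsf2bp, which binds heat shock factor 2 and is known mainly from meiosis, was taken in by its symbol. It was at 1.18, 0.106 and 0.126 TPM in IC, 0.720, 0 and 0.245 in EV, 1.76, 2.18 and 1.18 in 3_100 and 1.97, 3.10 and 0.440 in 3_many. The values are near the filter, and the 3_100 libraries reached or passed the highest IC library. The log2 change met the second criterion in 3_100 at 0.96 (adjusted p = 0.208) and in 3_many at 0.91 (adjusted p = 0.282), not the adjusted test of limma. The 14 members that were not tested stayed at or under 0.754 TPM in every library. Among them, Dnajb7, Dnajb8, Dnajc5g and Hspa1a were listed at 0 throughout, and the others were Dnajc22, Dnajc5b, Hsf4, Hsf5, Hspa12b, Hspa1l, Hspb2, Hspb3, Hspb7 and Hspb9. The 28 tested members without values of their own by the naming rule had log2 changes from -0.35 to 0.25 after EV, from -0.57 to 0.52 in 3_100 and from -0.48 to 0.51 in 3_many, and none passed the adjusted test or the second criterion.

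Comparing the preparations with each other asks where the vesicles, the 3–100 kDa proteins and the total secretome differed, at doses that were not equal. Against 3_100, 1 of 68 tested members passed the adjusted test in EV, and it was lower (1.47% of all genes tested passed), and 5 met the second criterion, all lower (5.19%). Dnajb5 was the called member, with a log2 difference of -0.62 (SE 0.12, adjusted p = 0.0303 by limma), and the EV libraries of 65.2, 62.8 and 50.1 TPM lay below all 3_100 libraries. The call was lost without EV 2, EV 3, 3_100 2, 3_100 3, 3_many 1, 3_many 2 or 3_many 3 (adjusted p between 0.0524 and 0.136). Hspa1b differed by -1.04 (SE 0.26, adjusted p = 0.0909), Hspa4l by -0.79 (SE 0.24, adjusted p = 0.165), Hsf2bp by -1.05 (SE 0.40, adjusted p = 0.294) and Bag3 by -0.76 (SE 0.26, adjusted p = 0.221), which met the second criterion. Hspb1 differed the other way, by 0.71 with a 95% interval of -0.44 to 1.85, and the EV libraries overlapped those of 3_100.

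Against 3_many, no member passed in EV by limma (0.451% of all genes tested). At an unadjusted p under 0.05, 1 member was higher and 7 lower, beside 569 and 673 of all 12861 genes tested. The second criterion was met by 3 members (3.88% of all genes). These 3 were Hspa1b at -0.76 (SE 0.26, adjusted p = 0.341), Bag3 at -0.67 (SE 0.26, adjusted p = 0.404) and Hsf2bp at -1.0 (SE 0.40, adjusted p = 0.433), all lower in EV. All EV libraries of Bag3 lay below those of 3_many, by a narrow gap between 17.8 and 17.9 TPM. Hspb1 differed by 0.00 with a 95% interval of -1.15 to 1.14. Without 3_many replicate 2, no member met the second criterion in this comparison, while the count over all genes went from 499 to 400. Between 3_many and 3_100 no member passed by limma (0% of all genes tested). At an unadjusted p under 0.05, 1 member was higher and 1 lower, beside 109 and 141 of all 12861 genes tested. The second criterion was met by 1 member (0.987% of all genes). This was Hspb11, with a log2 difference of 0.84 (SE 0.32, adjusted p = 1), and the 3_many libraries lay above those of 3_100. The change of Bag3 between these groups was -0.09 with a 95% interval of -0.66 to 0.48.

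The wider chaperone network was read from 4 lists of genes that are not members. Their calls were not checked under the alternatives used for the members. Of 11 further genes known to be induced by HSF1, 10 were tested, and 1, Hmox1, passed in each comparison with IC. Over all genes tested, 0.428% passed after EV, 7% in 3_100 and 4.13% in 3_many. Hmox1, the heme oxygenase that is also a target of oxidative stress signalling, was at 11.96, 19.9 and 13.8 TPM in IC, 40.8, 52.2 and 42.9 in EV, 45.4, 68.6 and 68.6 in 3_100 and 45.1, 77.1 and 70.3 in 3_many. All treated libraries lay above IC, and the log2 change was 1.53 (SE 0.27, adjusted p = 0.0349) after EV, 1.96 (SE 0.27, adjusted p = 0.00137) in 3_100 and 2.02 (SE 0.27, adjusted p = 0.00212) in 3_many by limma. The other 9 tested genes of that list, among them Cryab, Sqstm1, Stip1 and Chordc1, did not pass in any of the 3. The next lowest p after EV was that of Serpinh1, the collagen chaperone HSP47, at 0.26 (SE 0.17, adjusted p = 1).

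Of 20 co-chaperones of HSP90 and HSP70 without a J domain, 2 passed in 3_100, where 7% of all genes tested did, 1 in 3_many (4.13%) and none after EV (0.428%). Fkbp5, an immunophilin of steroid receptor complexes known to be induced by glucocorticoids, had log2 changes of 0.65 (SE 0.13, adjusted p = 0.0139) in 3_100 and 0.66 (SE 0.13, adjusted p = 0.018) in 3_many by limma, and Ptges3, the HSP90 co-chaperone p23, 0.36 (SE 0.10, adjusted p = 0.0496) in 3_100. Of 14 subunits of the chaperonin TRiC and of prefoldin, 1 passed in 3_100, a share near that of all genes, Pfdn4 at 0.48 (SE 0.12, adjusted p = 0.0371), and none in 3_many or after EV, where Tcp1 had the lowest p at 0.18 (SE 0.10, adjusted p = 1). The medians of the log2 change were 0.04 for the co-chaperones and 0.15 for TRiC and prefoldin in 3_100.

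In the list of the endoplasmic reticulum unfolded protein response, 22 of 24 genes were tested, 3 passed in 3_100, beside 7% of all genes tested, and none in 3_many or after EV. These were Xbp1, the transcription factor activated by splicing, at 0.62 (SE 0.11, adjusted p = 0.00586), Atf4, the factor of the integrated stress response, at 0.72 (SE 0.15, adjusted p = 0.0135), and Ppp1r15a, which encodes the phosphatase subunit GADD34, at 1.0 (SE 0.23, adjusted p = 0.0261). In 3_many they had 0.42 (SE 0.11, adjusted p = 0.0543), 0.58 (SE 0.15, adjusted p = 0.0505) and 0.56 (SE 0.23, adjusted p = 0.243) by limma. The median log2 change of this list was 0.14 in 3_100, 0.06 in 3_many and 0.04 after EV.

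Cell types and libraries were checked beside these results. Neurons and astrocytes were both present, with the 7 neuronal markers summing to 2287 to 2488 TPM in IC, 2185 to 2496 in EV, 1891 to 2369.9 in 3_100 and 1852 to 2392 in 3_many. The 6 astrocyte markers summed to 788 to 1046 TPM in IC, 1042 to 1359 in EV, 892 to 1243 in 3_100 and 1072 to 1413 in 3_many. Gfap alone was at 85.1, 361 and 128 TPM in IC, 491, 617 and 362 in EV, 242, 447 and 310.3 in 3_100 and 271, 635 and 408 in 3_many, with log2 changes of 1.59 (SE 0.49, adjusted p = 0.512) after EV, 1.05 (SE 0.49, adjusted p = 0.268) in 3_100 and 1.40 (SE 0.49, adjusted p = 0.159) in 3_many by limma. The other 5 astrocyte markers did not follow it, with log2 changes from -0.33 (Aldoc) to 0.11 (Slc1a2) after EV, from -0.27 (Aldoc) to 0.34 (Slc1a3) in 3_100 and from -0.11 (Aldoc) to 0.40 (Slc1a3) in 3_many, none of which passed. The 6 markers of the oligodendrocyte lineage summed to 175 to 228 TPM in IC, 184 to 226 in EV, 118 to 181 in 3_100 and 228 to 255 in 3_many. Of 3 markers of pericytes and smooth muscle, Pdgfrb was at 3.18, 4.01 and 2.45 TPM in IC and had log2 changes of -1.43 (adjusted p = 0.00292) in 3_100, -0.91 (adjusted p = 0.0438) in 3_many and -0.89 (adjusted p = 0.237) after EV by limma. Acta2 went the other way in 3_100, at 0.926, 1.64 and 1.02 TPM against a listed 0 in all IC libraries, and Rgs5 was listed at 0 in all but 1 library. The 6 microglial markers summed to less than 2 TPM in every library, with Ptprc at 0 throughout, and 3 endothelial markers to less than 1 TPM. The 5 markers of fibroblasts and meninges summed to 0.270 to 0.698 TPM in IC, 0.576 to 1.71 in EV, 1.42 to 1.96 in 3_100 and 0.909 to 1.90 in 3_many. The part of these markers in the members' changes was not tested, and in bulk RNA fewer cells of a type and less RNA per cell cannot be told apart. IC replicate 2, EV replicate 1 and 3_100 replicate 1 stood highest on the first component of the deviations from the group means, which held 36.7% of the variance within groups. Their scores were 35.4, 45.5 and 28.6, and IC replicate 3 and EV replicate 3 lay as far at the other end, at -31.1 and -29.7. Without these 3 libraries, left out after seeing the data, 13 members passed in 3_100, 12 in 3_many and 1 after EV, and Bag3 was among them each time. Over all 12861 genes the counts in that setting were 1398, 1535 and 47, beside 900, 531 and 55 with all libraries. The methods speak of unrelated cultures for the experiments as a whole, and the study corrected IC and EV for a day covariate in its clustering. Which library belongs to which culture or day is not given in the sources used here, so day was not analysed, and the p-values measure the spread between these libraries, which may in part be technical.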

How the data were processed

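The 12 libraries were grouped by the labelled treatment. The authors obtained gene-level abundances by running Salmon on trimmed reads with the Ensembl rat transcriptome, followed by tximport, per the methods, and the labels name the build Rnor_6.0. The deposited columns carry no named unit and were read as TPM made by the authors, since each library adds up to one fixed total. TPM keeps no depth, so depth is unknown and no interval for counting error was computed. Labels and methods differ on the library kit and platform, and whether strand was used is open.

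Rows of one name were summed (497 of 28111 names had more than 1 row, none a member), libraries were rescaled by median-of-ratios factors of 0.904 to 1.07, and names with a mean of at least 1 TPM were tested. TPM per library is given as deposited. The study's test needs counts, so log2(TPM + 1) was fitted with limma 3.58.1 (lmFit, contrasts.fit, eBayes with a trend) in R 4.3.3, in 1 fit of all 12 libraries with 8 residual degrees of freedom, two-sided, with Benjamini-Hochberg adjustment over 12861 names. Fold changes on this scale understate the change of low genes. The script was tested on simulated data. Members given with values were those past either criterion in any comparison and a list of well-known chaperones. The members, lists and tests were chosen with earlier results of these data known. RefSeq promoters (GRCr8) were used for sequence only and not joined to the other build.

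Groups share replicate numbers. Same-numbered deviations from the group means correlated at -0.05, -0.15 and 0.45 for EV and IC and at 0.00, -0.20 and 0.21 for 3_100 and IC, read as not paired. In the other 4 comparisons every correlation exceeded 0.1, from 0.13 to 0.54, read as paired from the data and not the labels. Libraries of different number reached 0.474 for EV and IC and 0.244 for EV and 3_100, so this reading is uncertain. The main tests used no pairing in any comparison, and the replicate block is an alternative. With the block, calls over all genes went from 189 to 305 in EV against 3_100 and from 531 to 849 in 3_many against IC. The study names a day covariate for IC and EV, but no source used here ties libraries to days, so the replicate block is not a correction for day. Alternatives were another pseudocount, other filters, no rescaling, robust empirical Bayes, the replicate block, the highest row of each name, fits of each pair alone, each library left out, and 3 libraries left out together, chosen after seeing the data.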

Additional observations from a re-analysis of the deposited data

How the results depend on the processing

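The counts of members past each criterion were recomputed under 21 alternatives. At an adjusted p under 0.05, fitting each pair of groups alone called 0 members after EV, 3 in 3_100 and 0 in EV against 3_100, beside 2, 8 and 1 in the fit of all libraries, while the counts over all genes were 12, 368 and 48 beside 55, 900 and 189. Without rescaling, 3 were called in 3_100 and 0 in EV against 3_100, while 620 and 133 of all genes were called. Without a filter on low values 1 member was called after EV, beside 56 of the 18160 genes then tested. With the replicate block, 5 members were called in 3_many, while the count over all genes went from 531 to 849. The block moved no other count of members by more than 1.5 times. Among named members the block also brought Hspa4 (adjusted p = 0.0449) and Hspa5 (adjusted p = 0.0336) past limma's threshold in 3_100, a comparison read as not paired. Leaving out the 3 libraries at the high end of the first component within groups, chosen after seeing the data, gave 1 member after EV, 13 in 3_100, 12 in 3_many, 2 in EV against 3_100 and 1 in EV against 3_many. Over all genes the same setting called 47, 1398, 1535, 209 and 203, beside 55, 900, 531, 189 and 58 with all libraries. By the second criterion it gave 6 in EV against 3_many and 2 in 3_many against 3_100, and a pseudocount of 0.1 also gave 2 there. Over all genes these counts were 863 (499 in the fit of all libraries), 261 (127) and 137 (127).

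Leaving out 1 library at a time, the adjusted test called 1 to 2 members after EV, 2 to 9 in 3_100, 2 to 4 in 3_many and 0 to 1 in EV against 3_100, and it stayed at 0 in EV against 3_many and in 3_many against 3_100. Over all genes it called 33 to 62 after EV, 402 to 1064 in 3_100, 203 to 650 in 3_many and 59 to 215 in EV against 3_100. It called 18 to 62 of all genes in EV against 3_many and 0 to 1 in 3_many against 3_100. After EV the count was 1 without IC 1, IC 2, IC 3, EV 1, EV 2, 3_100 2, 3_100 3 or 3_many 2. By the second criterion the ranges were 2 to 3 after EV, 9 to 11 in 3_100, 3 to 7 in 3_many (3 without 3_many 2), 3 to 8 in EV against 3_100 (3 without 3_100 2, 8 without EV 1), 0 to 4 in EV against 3_many (0 without 3_many 2) and 0 to 2 in 3_many against 3_100 (0 without 3_many 2 or 3_many 3, 2 without 3_100 1). Over all genes these ranges were 280 to 488, 1112 to 1571, 841 to 1201, 595 to 890, 400 to 692 and 125 to 195. Where an alternative leaves a group of 2, the spread is shared with the other groups.

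Of the 13 changes called among the 40 named members, 4 kept their call under every alternative: Bag3 in 3_100 and in 3_many, Dnajb5 in 3_100 and Hspb1 in 3_many. No called change turned its direction, while 84 of the uncalled changes had the other sign in at least 1 alternative. Why calls were lost was not tested, beyond the fewer libraries of the smaller fits. Depth is unknown in these files, so a listed 0 sets no limit on a level.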
